A study of Mus musculus with 6 samples.

Results

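The genes described here are 10 genes by which Leydig cells, the interstitial cells of the testis, make and regulate androgen: Star, Cyp11a1, Cyp17a1, Hsd3b1, Hsd3b6, Hsd17b3, Insl3, Lhcgr, Nr5a1 and Srd5a1. They were chosen by symbol, and each was measured by 1 RefSeq transcript accession among the 25631 accessions (rows) of a NimbleGen mouse expression array. Testis RNA of male mice (Mus musculus) at postnatal day 9 (P9) was hybridised to 6 arrays, each carrying 1 sample. The 3 control samples were Cre-negative and the 3 Dmrt1 KO samples were Cre-positive, and the genotype label NGN-cre stands on the samples of both groups. The sources used here do not give the promoter that drives this Cre, the Dmrt1 allele of each group or whether testes were pooled, and Cre status cannot be told apart from the targeting of Dmrt1.

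Leydig cells build testosterone from cholesterol. Star carries cholesterol into the mitochondrion, Cyp11a1 cleaves it to pregnenolone, and 3-beta-hydroxysteroid dehydrogenases, Cyp17a1 and Hsd17b3 turn pregnenolone stepwise into testosterone, which Srd5a1 can reduce further. Luteinizing hormone acts through its receptor Lhcgr and cyclic AMP to raise this synthesis, and the nuclear receptor Nr5a1 (steroidogenic factor) drives most of the genes. In the mouse, Leydig cells of fetal origin persist after birth and are joined by a second, adult population.

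None of the 10 genes differed between Dmrt1 KO and control testes at an adjusted p of 0.05 (limma, Benjamini-Hochberg over all rows), where 8 rows (0.0312%) did. The member with the smallest p was Hsd17b3, with an adjusted p of 0.529. No member reached an unadjusted limma p of 0.05 either, against 4.41% of all rows that did so with a higher and 5.10% with a lower value in the Dmrt1 KO arrays. Differences were small: 9 of the 10 lay above 0, with a median of 0.28 on the log2 scale, where 48.0% of all rows lay above 0 and the median of all rows was -0.02. Among the brighter rows by mean intensity (the upper 50%), which hold 8 of the 10 genes, 45.3% lay above 0.

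In 3 of the 10 genes (Cyp17a1, Hsd17b3 and Cyp11a1) every Dmrt1 KO array lay above every control array. Over all rows this held for 6.80%, and for 6.53% of the brighter ones. The groups overlapped in the other 7 genes, and no member had all Dmrt1 KO arrays below the controls, as 8.54% of all rows did. Whole testes were measured, so differences in Leydig cell number, RNA per Leydig cell and the share of other cells cannot be told apart.

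**Figure D1:**
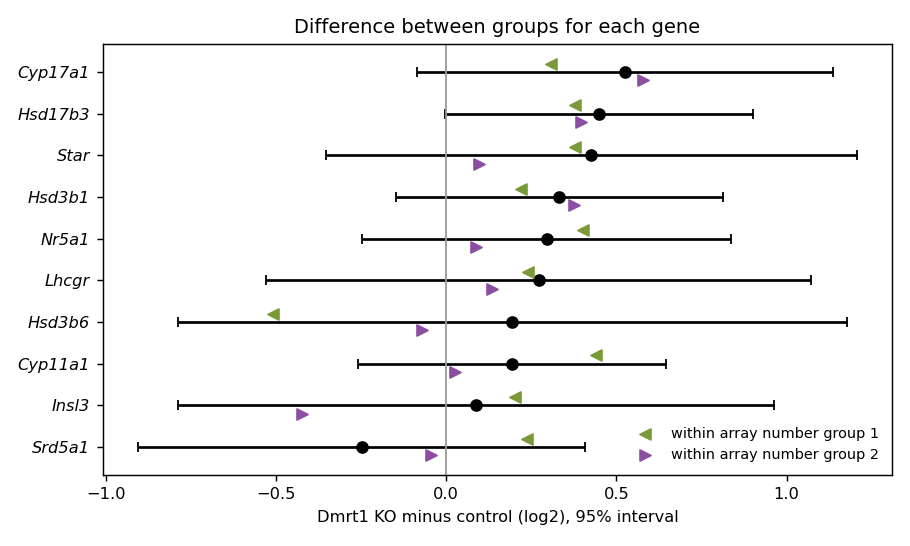
Difference between Dmrt1 KO and control in log2 intensity for the 10 genes (black points, n = 3 arrays per group) with limma's 95% interval, and the same difference inside array number groups 1 and 2 (coloured triangles). All 10 intervals include 0, and the point estimates run from -0.25 for Srd5a1 to 0.52 for Cyp17a1.

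The targeted gene, Dmrt1, a transcription factor of germ and Sertoli cells, read 13.59, 13.49 and 13.21 (log2 intensity) in control replicates 1 to 3 and 11.98, 12.08 and 12.27 in Dmrt1 KO replicates 1 to 3. All Dmrt1 KO arrays were below the controls, with a difference of -1.32 ± 0.20 (SE, n = 3 per group, limma adjusted p = 0.124). The leading digits of the array numbers in the titles split the arrays into 3 groups, treated as a possible batch: group 1 holds control replicate 1 and Dmrt1 KO replicate 1, group 2 holds control replicates 2 and 3 and Dmrt1 KO replicate 2, and group 3 is Dmrt1 KO replicate 3 alone. That last array also stood apart in its values, with no Pearson's r above 0.973 to another array across rows. Median intensity ran from 498.1 to 543.8. Separate animals are not stated for the 6 samples, so every p-value reflects sample-to-sample spread alone, which may be technical. The background guide used below is a log2 intensity of 7.19, the 95th percentile of the mean of 1064 olfactory receptor rows, and the means of all 10 Leydig cell genes lay above it.

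For the entry of cholesterol and its first cleavage, the differences were of the size of their errors. Star, which delivers cholesterol to the inner mitochondrial membrane, read 11.30, 10.61 and 11.82 (log2 intensity) in control replicates 1 to 3 and 11.68, 11.31 and 12.02 in Dmrt1 KO replicates 1 to 3. Control replicate 2 was the lowest array and the groups overlapped, since control replicate 3 lay above 2 of the Dmrt1 KO arrays. The difference in Star was 0.43 ± 0.34 (SE, adjusted p = 0.754). It was 0.11 without control replicate 2, 0.25 without Dmrt1 KO replicate 3 and 0.72 without control replicate 3. Cyp11a1, the cholesterol side-chain cleavage enzyme, stood at 12.69, 12.73 and 12.70 in the controls and 13.13, 12.74 and 12.83 in the Dmrt1 KO arrays. Its controls lay within a narrow band (SD 0.02) and all Dmrt1 KO arrays were above them, Dmrt1 KO replicate 2 only just. The Cyp11a1 difference was 0.19 ± 0.20 (SE, adjusted p = 0.826), with 0.44 in array number group 1, 0.03 in group 2 and 0.078 without Dmrt1 KO replicate 1.

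The enzymes that lead from pregnenolone to testosterone include 2 of the 3 genes whose groups did not overlap. Cyp17a1, whose hydroxylase and lyase activities commit steroids to androgens, read 15.24, 14.39 and 15.17 in the controls (log2 intensity) and 15.55, 15.36 and 15.47 in the Dmrt1 KO arrays. The groups did not overlap, and control replicate 2 was far below the other 5 arrays. Its difference of 0.52 ± 0.26 (SE, adjusted p = 0.589) was 0.25 without control replicate 2, 0.31 within array number group 1 and 0.58 within group 2. Only 0.382% of all rows had a higher mean than Cyp17a1, which places it near the top of the measured range.

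Hsd17b3, the enzyme that reduces androstenedione to testosterone, stood at 14.61, 14.84 and 14.55 in the controls and 14.99, 15.09 and 15.27 in the Dmrt1 KO arrays. In the fetal mouse testis this step is carried out by Sertoli cells, and after birth it passes to the adult Leydig cells. The groups did not overlap, the spread within each was small (SD 0.15 and 0.14), and the 2 array number groups gave nearly the same value (0.38 and 0.40). The difference was 0.45 ± 0.20 (SE, 1.37-fold, 95% interval from 0.998-fold to 1.87-fold, adjusted p = 0.529), and over 14 alternative settings it ran from 0.37 to 0.54.

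The 3-beta-hydroxysteroid dehydrogenase genes Hsd3b1 and Hsd3b6 lie in one cluster of closely related copies, so signal shared between their probes was not tested. Hsd3b1, the form of fetal and adult Leydig cells in the mouse, read 13.49, 13.29 and 13.76 in the controls (log2 intensity) and 13.71, 13.90 and 13.93 in the Dmrt1 KO arrays. One control array (replicate 3) lay above Dmrt1 KO replicate 1, so the groups overlapped. The difference was 0.33 ± 0.21 (SE, adjusted p = 0.673), and 0.22 without control replicate 2. Hsd3b6, in the mouse a form of adult Leydig cells, stood at 8.46, 8.84 and 8.11 in the controls and 7.96, 8.41 and 9.64 in the Dmrt1 KO arrays. It was both lowest and highest in Dmrt1 KO arrays, with replicate 3 as the high one, and the overall difference of 0.19 ± 0.43 (SE, adjusted p = 0.930) ran from -0.29 without that array to 0.55 without Dmrt1 KO replicate 1. Srd5a1, the 5-alpha-reductase of immature adult Leydig cells, was the 1 member below 0. Its values were 8.10, 8.62 and 8.45 in the controls and 8.34, 8.49 and 7.60 in the Dmrt1 KO arrays, so that Dmrt1 KO replicate 3 was the lowest of all. The Srd5a1 difference of -0.25 ± 0.28 (SE, adjusted p = 0.849) ran from -0.42 without Dmrt1 KO replicate 2 to 0.024 without Dmrt1 KO replicate 3.

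**Figure D2:**
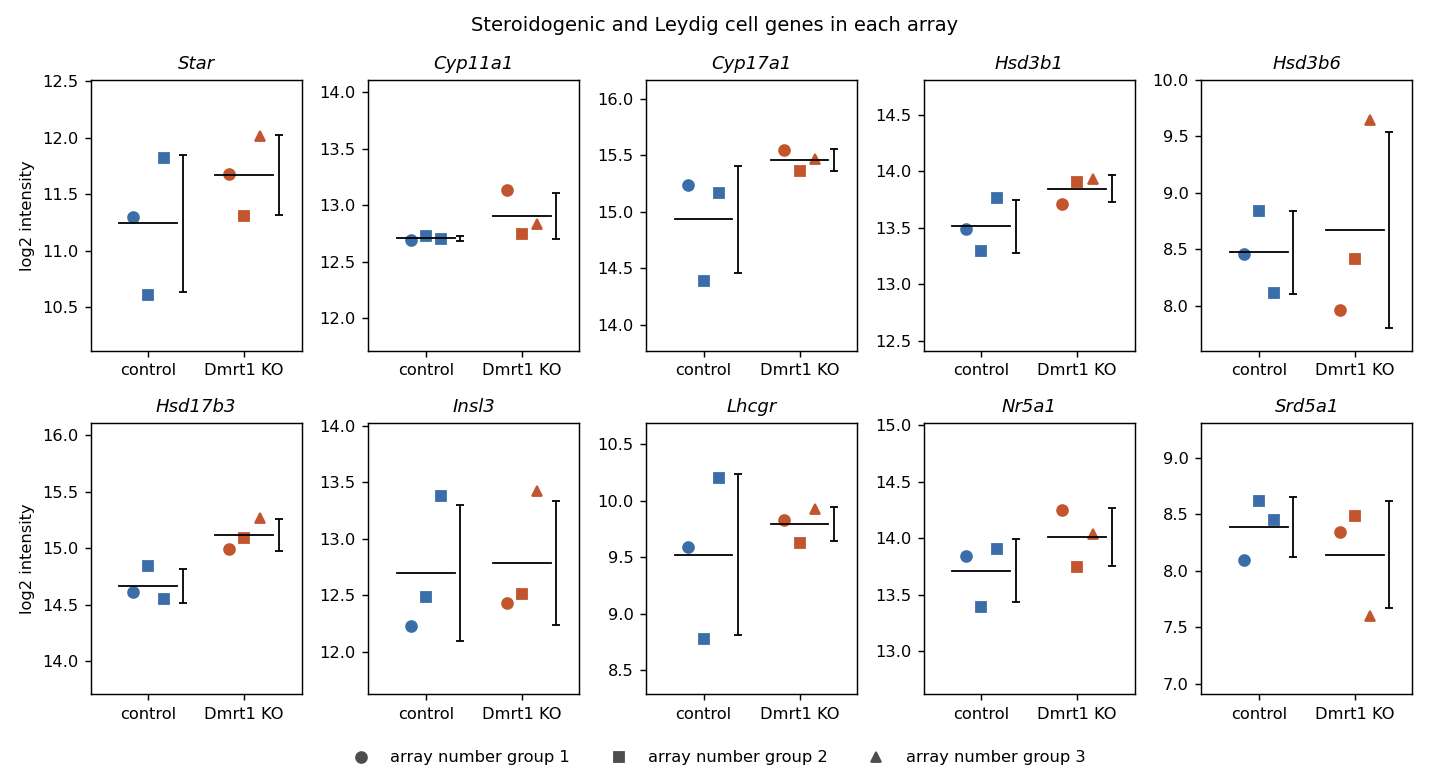
Log2 intensity of the 10 genes in the 6 arrays. Each point is 1 array, its shape gives the array number group, horizontal lines are group means and bars are ± 1 SD (n = 3). Every panel spans the same number of log2 units on its own range. The groups are separate in Cyp11a1, Cyp17a1 and Hsd17b3, and control replicate 2 is the lowest point in Star, Cyp17a1, Hsd3b1, Lhcgr and Nr5a1.

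The receptor, the regulator and the peptide hormone of the list overlapped between the groups. Lhcgr, the receptor through which luteinizing hormone acts, read 9.59, 8.78 and 10.20 in the controls (log2 intensity) and 9.83, 9.63 and 9.93 in the Dmrt1 KO arrays. All Dmrt1 KO values fell inside the range of the controls, whose SD was 0.71 against 0.16. The Lhcgr difference was 0.27 ± 0.35 (SE, adjusted p = 0.866), from -0.099 without control replicate 2 to 0.61 without control replicate 3. Nr5a1, which is also expressed in Sertoli cells, stood at 13.84, 13.39 and 13.90 in the controls and 14.25, 13.74 and 14.04 in the Dmrt1 KO arrays. Its difference was 0.30 ± 0.23 (SE, adjusted p = 0.756), or 0.14 when control replicate 2 was left out and 0.18 when Dmrt1 KO replicate 1 was. Insl3, the Leydig cell peptide that guides testis descent, had values of 12.23, 12.48 and 13.38 in the controls and 12.43, 12.51 and 13.42 in the Dmrt1 KO arrays. In each group 1 array, replicate 3, lay well above the other 2, and those arrays are in different array number groups. The Insl3 difference of 0.09 ± 0.38 (SE, adjusted p = 0.967) was the smallest of the 10, and it ran from -0.23 without Dmrt1 KO replicate 3 to 0.43 without control replicate 3.

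Since most of these genes are classical targets of Nr5a1, promoter windows of 300 bases (250 before to 50 after the start of transcription, from RefSeq, build GRCm38.p6) were searched on both strands for AGGTCA, the core letters of many nuclear receptor sites, and for CAAGGTC, a longer core bound by Nr5a1. The 2 motifs overlap in the letters AGGTC. A window was found for 7 of the 10 genes (8 windows, as Cyp11a1 has 2 starts). Star, Cyp17a1 and Nr5a1 had no entry. AGGTCA stood in the windows of Lhcgr (chr17:88791965-88792264, minus strand, 122 bases before the start) and of the 1 Cyp11a1 start shown (chr9:58014702-58015001, plus strand, 28 bases before the start), and in 16.3% of all 32851 windows. CAAGGTC stood in that of Insl3 (chr8:71689002-71689301, plus strand, 137 bases before the start), and in 3.96% of all windows. The 3 windows with a match are printed 5′ to 3′ with the matched letters in capitals, followed by that of Hsd17b3 (chr13:64089152-64089451, minus strand), the member with the smallest p, which held neither motif.
Cyp11a1: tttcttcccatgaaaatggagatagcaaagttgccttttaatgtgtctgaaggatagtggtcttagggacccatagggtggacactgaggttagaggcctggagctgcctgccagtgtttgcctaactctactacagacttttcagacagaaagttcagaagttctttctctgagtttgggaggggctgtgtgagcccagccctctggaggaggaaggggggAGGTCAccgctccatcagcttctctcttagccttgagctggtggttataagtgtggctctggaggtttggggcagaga
Lhcgr: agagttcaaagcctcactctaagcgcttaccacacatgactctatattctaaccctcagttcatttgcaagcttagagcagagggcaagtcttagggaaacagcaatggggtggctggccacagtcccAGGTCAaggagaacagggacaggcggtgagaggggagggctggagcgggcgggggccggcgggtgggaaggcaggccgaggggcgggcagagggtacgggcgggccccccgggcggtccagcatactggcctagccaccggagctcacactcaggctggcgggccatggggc
Insl3: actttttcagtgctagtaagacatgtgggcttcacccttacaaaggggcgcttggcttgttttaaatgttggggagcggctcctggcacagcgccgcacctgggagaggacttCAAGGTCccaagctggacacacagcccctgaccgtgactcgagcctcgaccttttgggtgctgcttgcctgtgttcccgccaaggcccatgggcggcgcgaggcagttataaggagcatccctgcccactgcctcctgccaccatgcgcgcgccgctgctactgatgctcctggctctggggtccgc
Hsd17b3: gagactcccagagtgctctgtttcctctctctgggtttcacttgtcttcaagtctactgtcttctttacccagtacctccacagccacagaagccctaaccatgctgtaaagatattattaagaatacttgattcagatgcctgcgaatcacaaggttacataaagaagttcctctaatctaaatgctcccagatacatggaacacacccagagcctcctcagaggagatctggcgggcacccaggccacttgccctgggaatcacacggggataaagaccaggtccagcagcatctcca
The other Cyp11a1 start and the windows of Hsd3b1, Hsd3b6 and Srd5a1 held neither motif. The genes with a match (Cyp11a1, Lhcgr, Insl3) had differences of 0.19, 0.27 and 0.09, and those without one (Hsd17b3, Hsd3b1, Hsd3b6 and Srd5a1) 0.45, 0.33, 0.19 and -0.25. A match describes letters only, and no match says only that these letters are not in this window.

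The genes also varied among the arrays of a group. Control replicate 2 was the lowest of all 6 arrays in 5 genes (Star, Cyp17a1, Hsd3b1, Lhcgr and Nr5a1), and Dmrt1 KO replicate 3 was the highest of all 6 in 5 (Star, Hsd3b1, Hsd3b6, Hsd17b3 and Insl3). Within groups the pooled SD ran from 0.15 for Cyp11a1 and Hsd17b3, lower than in over 90% of rows, to 0.67 for Hsd3b6, higher than in 91.4% of rows. The median over all rows was 0.31. Star and Lhcgr followed each other most closely over the 6 arrays (Pearson's r = 0.94, Spearman's rho = 0.94), ahead of Cyp17a1 and Nr5a1 (r = 0.89, rho = 0.77) and of Star and Nr5a1 (r = 0.86, rho = 0.77). Of the 45 pairs, 7 had an r above 0.8 and 15 had an r below 0, with a median of 0.24. Spearman's rho was lower in some of those 7. It was 0.83 for Star with Hsd3b1, 0.54 for Cyp17a1 with Star and with Hsd3b1, and 0.37 for Cyp17a1 with Lhcgr. For deviations from the group means, which leave out the difference between groups, the median r was -0.01. Star with Lhcgr, Cyp17a1 with Nr5a1 and Star with Nr5a1 kept a high r there (0.95, 0.84 and 0.81 in that order). Others fell, such as Cyp17a1 with Hsd17b3, from 0.35 to -0.73. Srd5a1 had an r below 0 with each of the other 9 genes, from -0.11 with Cyp11a1 to -0.68 with Hsd3b6, and Hsd3b1 with Hsd3b6 gave 0.11. These coefficients describe 6 arrays that share the groups, the normalization and the array number groups.

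**Figure D3:**
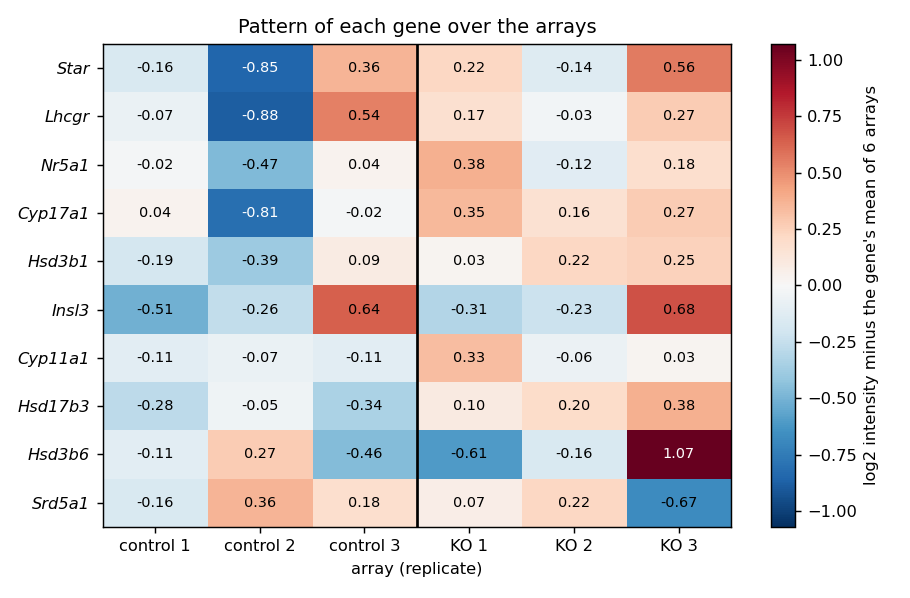
Log2 intensity of each gene minus its own mean over the 6 arrays, as colour and printed value, for control replicates 1 to 3 and Dmrt1 KO replicates 1 to 3. Star, Lhcgr and Cyp17a1 are lowest in control replicate 2 (-0.85, -0.88 and -0.81), while Hsd3b6 is highest in Dmrt1 KO replicate 3 (1.07) and Srd5a1 lowest there (-0.67).

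The mean pattern of the 10 genes, each centred on its own mean, was -0.16, -0.32 and 0.09 in the controls and 0.07, 0.00 and 0.30 in the Dmrt1 KO arrays. Among 9623 named genes of the brighter rows outside the list, the 5 most like it by Pearson's r over the 6 arrays were Prelid1 (0.995), Primpol (0.993), Plin3 (0.990), Vcpkmt (0.989) and Il1r1 (0.988). In all, 120 of these genes had an r above 0.9.

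The wider pathway was described by 7 lists of 73 measured genes, of which 0 passed an adjusted p of 0.05. For cholesterol supply, 8 of 12 genes lay above 0 (median 0.12), and in 5 of them every Dmrt1 KO array was above every control, with 1 gene the other way. Over all rows, 6.80% had all Dmrt1 KO arrays above the controls and 8.54% had all below. The same shares apply to the genes without overlap in the lists that follow. In a list of 18 synthesis enzymes drawn up after these values were seen, 8 lay above 0 and the median was -0.10.

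Proteins that feed electrons or convert steroids further gave mixed values. Of 5 electron donor genes 3 lay above 0 (median 0.11). Fdxr, the reductase that serves mitochondrial steroid enzymes such as Cyp11a1, had a difference of 0.24 ± 0.18 (SE) with no overlap between groups, Cyb5a, which aids the lyase step of Cyp17a1, one of -0.14 ± 0.22, and Fdx1, the ferredoxin, one of 0.12 ± 0.29. Of 14 other steroid enzymes 7 lay above 0 (median 0.10), and 5 (Cyp19a1, Akr1c18, Hsd11b1, Hsd11b2 and Sult1e1) had means below the background guide. Hsd17b1, which reduces estrone and androstenedione, stood at 8.02, 7.93 and 8.35 in the controls and 9.38, 8.35 and 9.88 in the Dmrt1 KO arrays. Dmrt1 KO replicates 1 and 3 were high and replicate 2 was level with the highest control. Its difference was 1.10 ± 0.38 (SE, adjusted p = 0.415), from 1.36 in array number group 1 to 0.21 in group 2. Srd5a3, a relative of Srd5a1 that acts on polyprenol, read 10.59, 10.59 and 11.15 in the controls (log2 intensity) and 11.73, 11.27 and 11.36 in the Dmrt1 KO arrays. Its groups did not overlap (0.68 ± 0.24, SE, adjusted p = 0.433), while Srd5a1 itself lay at -0.25. Hsd11b1, the glucocorticoid-activating enzyme of mature Leydig cells, gave 0.74 ± 0.38 with a mean below the guide.

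**Figure D4:**
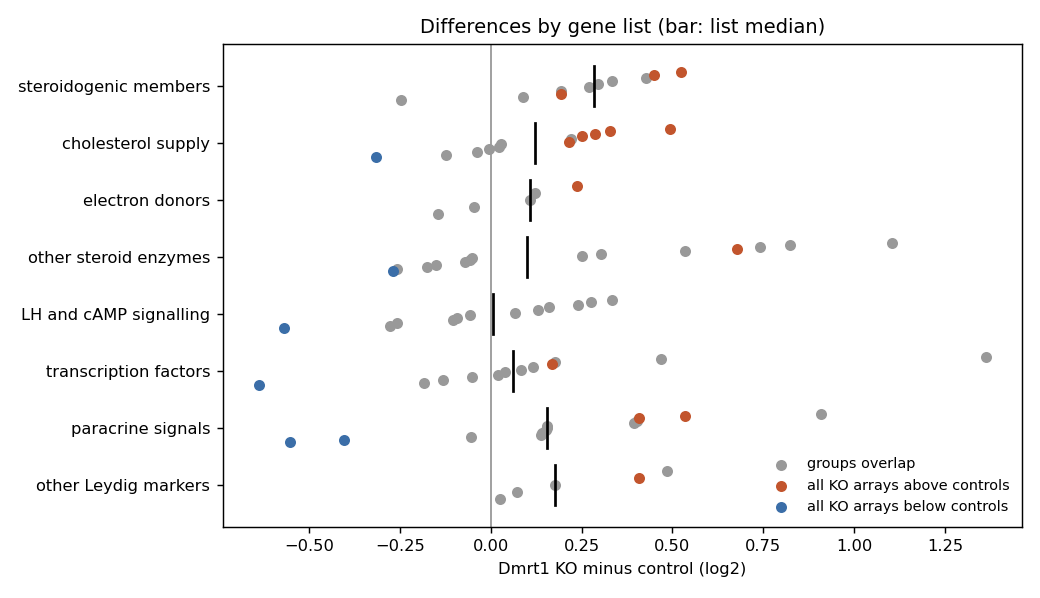
Dmrt1 KO minus control difference in log2 intensity for the 10 genes and for the 7 lists of related genes. Each point is 1 gene, colour marks genes whose groups do not overlap, and black bars are list medians, from 0.01 for LH and cAMP signalling to 0.28 for the 10 steroidogenic members.

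Genes of luteinizing hormone and cyclic AMP signalling centred on 0, with 6 of 12 above it and a median of 0.01. Pde8a, a phosphodiesterase that lowers cyclic AMP in Leydig cells, stood at 10.19, 10.24 and 10.45 in the controls and 10.06, 9.39 and 9.71 in the Dmrt1 KO arrays, all below the controls (-0.57 ± 0.23, SE, adjusted p = 0.498). Prkaca and Prkar2b, a catalytic and a regulatory subunit of protein kinase A, gave -0.28 ± 0.21 and 0.24 ± 0.23 with overlapping groups.

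Of 12 transcription factors of the Leydig lineage 8 lay above 0 (median 0.06), and the 2 with the smallest p lay on opposite sides of 0. Nr0b1, a repressor of Nr5a1 that Sertoli cells express too, read 10.66, 10.69 and 10.89 in the controls (log2 intensity) and 10.55, 9.91 and 9.87 in the Dmrt1 KO arrays. All Dmrt1 KO arrays were below the controls, with a difference of -0.64 ± 0.24 (SE, adjusted p = 0.466), -0.11 in array number group 1 and -0.88 in group 2. Nr4a1, a nuclear receptor that cyclic AMP induces and that activates steroidogenic promoters, stood at 11.92, 11.41 and 12.35 in the controls and 13.93, 11.87 and 13.96 in the Dmrt1 KO arrays. Dmrt1 KO replicates 1 and 3 were above every control, and replicate 2 lay among the controls. The Nr4a1 difference was 1.36 ± 0.56 (SE, adjusted p = 0.503), with 2.01 in array number group 1 and -0.01 in group 2. Cebpb, a factor that also acts on the Star promoter, gave 0.47 ± 0.44. Gata4, a GATA factor of Leydig and Sertoli cells, was the 1 gene of the list with all Dmrt1 KO arrays above the controls (0.17 ± 0.18, SE), as were 6.80% of all rows.

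Signals that pass between Leydig cells and their neighbours lay mostly above 0, in 10 of 13 genes, with a median of 0.15. Pdgfa, a growth factor needed for adult Leydig cells, was even within each group: 10.26, 10.21 and 10.14 in the controls and 10.84, 10.78 and 10.59 in the Dmrt1 KO arrays. The groups did not overlap and the difference was 0.53 ± 0.19 (SE, adjusted p = 0.423), with 0.58 in array number group 1 and 0.60 in group 2. Inhba, an activin subunit, gave 0.41 ± 0.18, also with no overlap, and Rxfp2, the Insl3 receptor of germ cells and gubernaculum, 0.91 ± 0.38 with a mean below the guide. Igf1 (-0.40 ± 0.20) and Notch1 (-0.55 ± 0.28) had all Dmrt1 KO arrays below the controls. All 5 of the other Leydig markers lay above 0 (median 0.18), as did 48.0% of all rows. Within array number group 1 it was 4 of the 5, within group 2 it was 2, and with that group as a block 3. Dlk1, known from fetal and immature Leydig cells, gave 0.49 ± 0.23, the prolactin receptor gene Prlr 0.41 ± 0.23 and Thbs2 0.18 ± 0.23, and of these 3 only Prlr had groups that did not overlap.

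**Figure D5:**
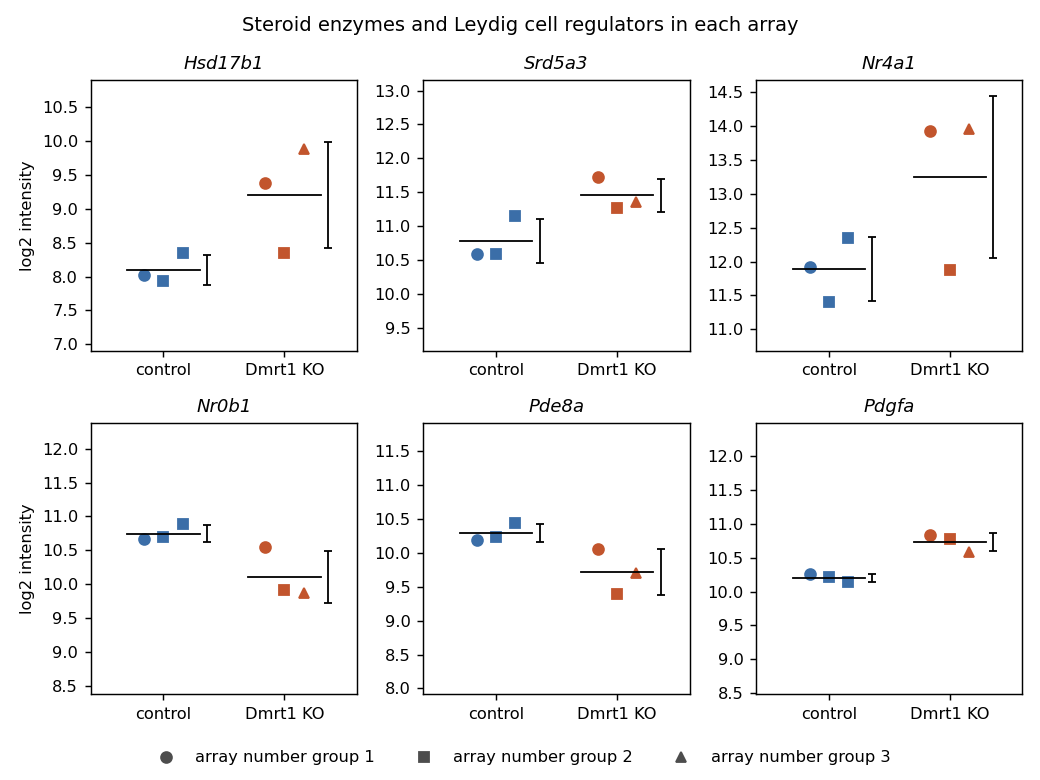
Log2 intensity in the 6 arrays of 6 genes from the wider lists, with points shaped by array number group, group means as lines and bars of ± 1 SD (n = 3). Srd5a3 and Pdgfa are higher and Nr0b1 and Pde8a lower in every Dmrt1 KO array than in every control, while Nr4a1 and Hsd17b1 are high in Dmrt1 KO replicates 1 and 3 only.

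Markers of other cell types were read on the same arrays. The adrenal cortex genes Cyp11b1, Cyp11b2 and Mc2r had means below the background guide, and 5 of 6 adrenal markers lay above 0 (median 0.37, summed intensity 2061 to 2289 in controls and 2378 to 3213 in Dmrt1 KO arrays). With array number group as a block 3 of the 6 did. The largest part of these sums came from Akr1b7 (mean log2 intensity 10.69, named after its values were seen). Sertoli and germ cell markers gave medians of -0.08 and -0.12 over 8 measured genes each, all above the guide. Their summed intensities were 154745 to 165848 in controls and 137436 to 155475 in Dmrt1 KO arrays for Sertoli cells, and 103001 to 118365 and 92622 to 109636 for germ cells. All 8 measured macrophage markers, of which 5 were above the guide, lay below 0 (median -0.41, summed intensity 9538 to 10898 in controls and 7689 to 8228 in Dmrt1 KO arrays). Of 7 epididymis and rete markers, of which 5 were above the guide, 6 lay above 0 (median 1.14, summed intensity 3021 to 5523 in controls and 10061 to 17252 in Dmrt1 KO arrays). In Dmrt1 KO replicates 1 to 3 the largest part of these sums came from Cdh1 (log2 intensity 13.04, 12.89 and 12.17). Of these 7, 5 were higher and 1 lower at an unadjusted limma p of 0.05, and 0 passed an adjusted p of 0.05 (genes named after their values were seen). Over all rows 4.41% were higher and 5.10% lower at that unadjusted p. Cdh1 (2.67), Krt18 (1.79) and Pax8 (1.14) had all Dmrt1 KO arrays above the controls. Krt19 (1.05) and Krt8 (0.96, mean below the guide) were higher with overlapping groups. Rnase10 (-1.12, mean below the guide) had all Dmrt1 KO arrays below the controls. Crisp1 varied widely inside both groups (SD 2.80 in controls and 3.45 in Dmrt1 KO arrays). The part of these cell types in the values of the 10 genes was not tested. Peritubular and endothelial markers had medians of 0.08 over 6 genes and 0.13 over 7.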

How the data were processed

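Per the submitters' processing notes the authors used RMA, whose version and settings the sources used here do not give. The deposited intensity is linear (8.81 to 65190), 1 value per RefSeq accession and array; log2 was taken before any test.

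Accessions without version were matched to GRCm38.p6 symbols, which named 17780 rows for 17277 genes. limma 3.58.1 under R 4.3.3 (lmFit, eBayes) compared 3 control with 3 Dmrt1 KO arrays, without covariate or filter, with Benjamini-Hochberg adjustment over 25631 rows and a threshold of 0.05. Errors are moderated SEs, on 4 residual and 3.96 prior degrees of freedom. A gene with several rows is given by its brightest. Replicates were numbered by accession order, which pairs no arrays. Precision is limited by the number of arrays. In simulated data with 200 changed rows among 25631, the fit called 6.4% of 2-fold and 74.6% of 4-fold changes. The changes were 2-, 4-, 8- or 16-fold. Row variances were drawn from limma's prior and not from each row's own spread, without an effect of array number group.

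Named are all 10 members, the 3 genes with the smallest limma p in each of the 7 pathway lists (those of the cholesterol supply list are not reported here), the 5 most alike in pattern, and genes named after their values were seen, where a count is spelled out, a marker is below the guide or the closing section says so. Members and lists were chosen with earlier results of these data known. Alternatives were quantile normalization, median subtraction, leaving out the dimmer 50% of rows, trend and robust moderation, array weights, log2(value + 50), the mean of a gene's rows, a block for array number group, single arrays left out and looser thresholds. matplotlib 3.10.9 (Python 3.11.15) drew the figures.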

Additional observations from a re-analysis of the deposited data

How the results depend on the processing

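No member passed under any of 14 alternative fits or at an adjusted p of 0.1 (lowest adjusted p 0.278, with trend and robust moderation), while rows called in the whole table went from 8 to between 0 and 81. At an unadjusted limma p of 0.05, 2 of 10 members passed with trend and robust moderation and 2 of 8 without the dimmer rows. With array medians subtracted or log2(value + 50) 1 passed, and 0 in the other fits. All these were higher in Dmrt1 KO arrays. Of all 25631 rows, 1122 were higher and 1326 lower at that p with trend and robust moderation. Without the dimmer rows it was 552 and 811 of 12816. With array medians subtracted it was 1295 and 1189 of 25631, and with log2(value + 50) 1100 and 1409. The median of the 10 genes ran from 0.17 without control replicate 2 to 0.41 without control replicate 3, and 7 to 9 genes lay above 0 with 1 array left out. Without control replicate 3, 6 genes had all Dmrt1 KO arrays above the controls, against 3 to 4 with another array left out and 2 with array medians subtracted (counts chosen after seeing the data). With 1 array left out fewer arrays are compared, so groups separate more easily. The share of all rows was not computed for these settings, so these counts cannot be set against it. Star, Cyp11a1, Cyp17a1, Hsd3b1, Hsd17b3 and Nr5a1 lay above 0 in each alternative. Hsd3b6 turned with array weights (-0.089) and with array number group as block (-0.26), Insl3 (-0.16) and Srd5a1 (0.076) with that block. With 1 array left out, Hsd3b6 ran from -0.29 (without Dmrt1 KO replicate 3) to 0.55, Insl3 from -0.23 (without Dmrt1 KO replicate 3; -0.14 without control replicate 1 and -0.021 without control replicate 2) to 0.43, Lhcgr from -0.099 (without control replicate 2) to 0.61, and Srd5a1 from -0.42 to 0.024 (without Dmrt1 KO replicate 3). The block gives Dmrt1 KO replicate 3, alone in its group, no weight; the cause of the other turns was not tested. The filter on dim rows left out Hsd3b6 and Srd5a1. The 95% intervals of 4 genes (Star, Cyp17a1, Hsd3b6 and Lhcgr) reach above 2-fold, so a doubling of these is not excluded with 6 arrays. Detection was limited on average, as the fit called 6.4% of simulated 2-fold changes. The simulated spread was not that of each member, so this is no rate for a single gene. No paired analysis was possible because the labels give no replicate numbers.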

Other observations

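Immediate-early genes, transcription factors and regulators that cells switch on within minutes of a stimulus, were read after the values of Nr4a1 were seen. Of 14 such genes other than Nr4a1, 12 had a difference above 0 (48.0% of all rows did), with a median of 0.35. Above 0 were 11 of the 14 within array number group 1, 4 within group 2 and 8 with that group as a block. In limma 0 passed an adjusted p of 0.05, and 1 was higher at an unadjusted p of 0.05, as were 4.41% of all rows. The median shift from the control mean was 0.49, -0.12 and 0.83 in Dmrt1 KO replicates 1 to 3. Junb and Nr4a2 had the largest differences of the 14 and are named after their values were seen. Junb, an AP-1 subunit, read 8.77, 8.69 and 8.33 in the controls (log2 intensity) and 10.59, 8.04 and 11.32 in the Dmrt1 KO arrays, and Nr4a2, a relative of Nr4a1, stood at 9.33, 8.49 and 8.68 against 10.33, 8.99 and 11.24. In both genes, as in Nr4a1 and Hsd17b1, Dmrt1 KO replicates 1 and 3 were high and replicate 2 was within or close to the range of the controls. Over the 6 arrays the Pearson's r of Nr4a1 with the 10 members was 0.88 for Nr5a1, 0.79 for Star, 0.76 for Cyp11a1, 0.72 for Cyp17a1, 0.59 for Lhcgr, 0.58 for Hsd3b1, 0.54 for Hsd17b3, 0.41 for Insl3, 0.18 for Hsd3b6 and -0.65 for Srd5a1. Spearman's rho for the same genes was 0.94, 0.89, 0.49, 0.71, 0.77, 0.60, 0.31, 0.37, -0.09 and -0.83. These values describe 6 arrays that share the groups and the array number groups.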
